A study of Homo sapiens with 8 samples.

Results

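The 10 genes described here encode matrix metalloproteinases (MMPs) and their tissue inhibitors (TIMPs): the secreted collagenase MMP1, the gelatinases MMP2 and MMP9, the stromelysin MMP3, the membrane-anchored MMP14, MMP15 and MMP16, and the inhibitors TIMP1, TIMP2 and TIMP3. They were chosen by gene symbol from a table of 61228 genes, and all 10 were found there. Of the 10, 7 passed the filter on low counts and were tested among 15568 genes, while MMP2, MMP3 and MMP9 did not pass. Messenger RNA was sequenced from MDA-MB-231 cells, a human triple-negative breast cancer line taken from a metastasis, in 4 groups of 2 libraries. All groups had been nucleofected, that is, guide RNAs were brought in by an electric pulse. Knockout gels held cells given Cas9 with guides against ETV1, ETV4 and ETV5 and grown in collagen I (3D), and control gels held cells given Cas9 with control guides in collagen I. Knockout monolayers held cells given Cas9 with the same 3 targets and grown on plastic (2D), and control monolayers held cells given control guides on plastic. The label of the control monolayers does not name Cas9, so an effect of Cas9 and the effects of knockout or culture cannot be told apart in any comparison with that group. Gels were digested with collagenase I before RNA was taken and monolayers were lysed directly, so culture and harvest cannot be told apart either. The labels do not say if the cells were a pool or a clone, how long they grew, or which of the collagen concentrations a gel had. Nor do they tie the 2 libraries of a group to separate cultures, so p-values measure the spread between libraries, which may be technical.

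MMPs are zinc proteases that cut collagens and other proteins outside the cell. MMP14 sits in the plasma membrane, cleaves fibrillar collagen I and activates the precursor of MMP2, for which TIMP2 acts as the bridge at low levels and as the inhibitor at high levels. TIMP1 inhibits secreted MMPs well and MMP14 poorly, and TIMP3 is held in the matrix and also inhibits proteases of the ADAM family. ETV1, ETV4 and ETV5 form the PEA3 group of ETS transcription factors, and several MMP promoters are textbook targets of ETS factors together with AP-1. Counts of transcripts show neither the amount nor the activity of these enzymes.

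The libraries held 15824504 to 23896899 counts. Among the targeted transcripts ETV1 and ETV4 were partly reduced and ETV5 was not. ETV1 was lower in knockout gels and knockout monolayers by 0.66 and 0.50 on the log2 scale, and ETV4 by 0.57 and 0.45. The log2 difference of ETV5 was 0.02 in gels and 0.03 in monolayers (edgeR adjusted p = 0.808 and 0.718). Transcript levels do not show how much protein was lost. Of 6 markers listed as high in this line, 5 were well expressed, with VIM up to 7407 CPM (counts scaled to library size), while SPARC stayed under 1 CPM in every library. Of 7 luminal, hormone receptor and epithelial markers listed as low or absent in this line, ESR1, PGR and CDH1 did not pass the filter. The other 4 passed it: the keratin gene KRT8 reached 554 CPM, ERBB2 69.4, EPCAM 23.0 and GATA3 12.7. Of 8 fibroblast markers 6 stayed under 1 CPM in every library, while COL1A1 reached 18.4 CPM and PDGFRB 6.28 CPM. The summed level of the fibroblast list was 13.3 CPM in knockout gels, 13.7 in control gels, 24.9 in knockout monolayers and 19.0 in control monolayers. Of 5 leukocyte markers 3 stayed under 1 CPM, and CSF1R was highest, at up to 5.51 CPM. Of 4 endothelial markers 2 stayed under 1 CPM, and PECAM1 was highest, at up to 7.88 CPM. In the same order of groups, the leukocyte sums were 4.75, 4.60, 7.98 and 5.98 CPM and the endothelial sums 7.89, 11.2, 10.1 and 12.4 CPM. The part of these lists in the results was not tested. In bulk RNA, fewer cells that express a gene and less RNA per cell cannot be told apart.

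Per kb of exon, the level of the members fell in 1 order in each of the 8 libraries: TIMP3, MMP14, TIMP1, TIMP2, MMP1, MMP15 and MMP16. TIMP3 had 300.4 to 407 CPM per kb, MMP14 had 215 to 288, TIMP1 had 117 to 198 and TIMP2 had 68.9 to 102, and the ranges of these neighbours over all libraries did not overlap. The secreted collagenase MMP1 had 2.71 to 6.93 CPM per kb, MMP15 had 0.957 to 1.91 and MMP16 had 0.483 to 1.23. MMP15 and MMP16 overlapped in their ranges over all libraries, although MMP15 was the higher one within each library. MMP14 made up 94.8 to 96.8% of the counts of all 24 MMP genes in the table, so the membrane collagenase was the main MMP transcript of these cells in every group. Per length, TIMP3 made up 57.5 to 62.1% of the 3 inhibitors' transcripts. The lengths are exon unions of the GENCODE annotation, and the isoforms present were not measured.

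**Figure D1:**
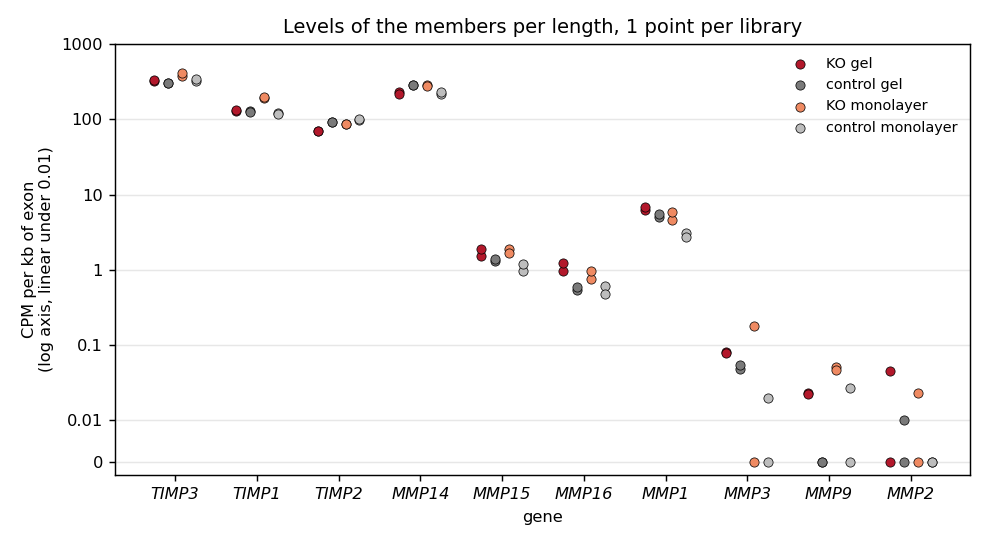
Levels of the 10 members in CPM per kb of exon (vertical axis, logarithmic above 0.01), with a point for each of the 8 libraries coloured by group. TIMP3, MMP14, TIMP1 and TIMP2 lie between 68.9 and 407, MMP1, MMP15 and MMP16 between 0.483 and 6.93, and MMP3, MMP9 and MMP2 near 0.

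The other members of the set were hardly detected. MMP3, which cleaves proteoglycans and activates other MMPs, had 3 and 3 counts in the knockout gels, 2 and 2 in the control gels, 6 and 0 in the knockout monolayers and 1 and 0 in the control monolayers. MMP9 had 1 and 1 counts in the knockout gels, 0 and 0 in the control gels, 2 and 2 in the knockout monolayers and 0 and 1 in the control monolayers. MMP2 had 0 and 4 counts in the knockout gels, 1 and 0 in the control gels, 0 and 2 in the knockout monolayers and 0 and 0 in the control monolayers. These 3 genes had at most 6 counts in a library and were not tested for a difference between groups. A count of 0 allows up to 3 counts, or 0.121 to 0.186 CPM depending on the library. These limits cover counting error only. On GRCh38, MMP1 and MMP3 lie near each other on chromosome 11 on the minus strand (102789920 to 102798160 and 102835801 to 102843803), MMP2 lies on chromosome 16 (55389700 to 55506691) and MMP9 on chromosome 20 (46008908 to 46016561).

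The set of RefSeq promoters used here (GRCh38.p14) held 4 of the 10 members: MMP14, MMP15, TIMP1 and TIMP3. It held none for MMP1, MMP2, MMP3, MMP9, MMP16 or TIMP2, which does not mean that RefSeq lacks them. The promoters of MMP14, TIMP1 and TIMP3 are shown. Of the members in the set, these are the most abundant whose knockout effects differed between cultures or passed in one of them. Each is the 250 bases before the RefSeq start, and matches to 4 motifs are in capitals: the AP-1 site TGANTCA, the AP-1 variant TGAGTAA, which was added knowing the TIMP1 promoter, the PEA3 site AGGAAG and the ETS site CGGAAG, each searched on both strands.
MMP14 promoter, chr14:22836335-22836584, plus strand: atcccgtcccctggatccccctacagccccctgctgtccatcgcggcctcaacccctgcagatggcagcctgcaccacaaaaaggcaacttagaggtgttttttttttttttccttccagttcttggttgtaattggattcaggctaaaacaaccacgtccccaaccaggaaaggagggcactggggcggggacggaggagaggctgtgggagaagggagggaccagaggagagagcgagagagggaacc
TIMP1 promoter, chrX:47582186-47582435, plus strand: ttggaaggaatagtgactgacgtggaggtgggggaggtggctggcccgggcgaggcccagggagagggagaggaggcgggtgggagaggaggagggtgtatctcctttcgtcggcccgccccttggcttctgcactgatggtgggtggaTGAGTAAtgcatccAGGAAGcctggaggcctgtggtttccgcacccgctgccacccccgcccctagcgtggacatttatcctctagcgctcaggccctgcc
TIMP3 promoter, chr22:32801455-32801704, plus strand: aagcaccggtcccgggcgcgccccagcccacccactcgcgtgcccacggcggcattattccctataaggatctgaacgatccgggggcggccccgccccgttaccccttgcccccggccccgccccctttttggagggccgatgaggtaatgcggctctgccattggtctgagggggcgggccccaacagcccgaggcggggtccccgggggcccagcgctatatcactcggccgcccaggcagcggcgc
The TIMP1 window held the AP-1 variant, whose first base lies at -101 from the start, and 1 PEA3 site at -87, which do not overlap. The MMP14, TIMP3 and MMP15 windows held none of these letters. Of 35116 RefSeq promoter windows of the same length, 6.6% held TGANTCA, 2.2% TGAGTAA, 28.7% AGGAAG and 16.5% CGGAAG. In the GENCODE annotation all 4 genes start inside their windows: MMP14 at 22836557, TIMP1 at 47582313, TIMP3 at 32801701 and MMP15 at 58025566. The MMP15 window, not shown, spans 58025504 to 58025753. TIMP1 starts before both of its matches. A match is a description of the letters and not of binding.

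MMP14 showed opposite knockout effects in the 2 cultures. Its level was 856 and 819.8 CPM in the knockout gels, against 1073 and 1061 CPM in the control gels. It was 1075 and 1044 CPM in the knockout monolayers, against 801 and 861 CPM in the control monolayers. The knockout gels and the control monolayers thus lay at one low level and the other groups at one high level, with no overlap between a knockout group and its own control. MMP14 fell in knockout gels (log2 -0.35 ± 0.046 SE, a change of -21.5%, adjusted p = 3.33e-07 by edgeR's quasi-likelihood test over all genes) and rose in knockout monolayers (log2 0.35 ± 0.046, or 27.5%, adjusted p = 3.9e-07). The difference between these effects (gels minus monolayers, called the interaction from here on) was -0.70 ± 0.065 (95% interval -0.83 to -0.57, adjusted p = 1.97e-09). Seen by culture, MMP14 was lower in knockout gels than in knockout monolayers (log2 -0.34 ± 0.046, adjusted p = 3.99e-07) and higher in control gels than in control monolayers (log2 0.36 ± 0.046, adjusted p = 2.42e-07). All 5 calls were made in each alternative analysis run for them, although a correction for transcript length and GC content brought the difference between knockout gels and knockout monolayers to -0.20. These comparisons share groups, so their values are not independent. MMP14 lies on chromosome 14 (22836557 to 22849027, plus strand), with no other gene overlapping it in the annotation.

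The other membrane members, MMP15 and MMP16, had far lower levels per length than MMP14. MMP16 had 11.0 and 14.2 CPM in the knockout gels, against 6.19 and 6.91 CPM in the control gels. It had 8.70 and 11.2 CPM in the knockout monolayers, against 6.96 and 5.58 CPM in the control monolayers. Each knockout library was above both of its controls in either culture. MMP16 rose in knockout gels (log2 0.95 ± 0.15, or 1.93-fold, adjusted p = 1.4e-05) and in knockout monolayers (log2 0.65 ± 0.16, adjusted p = 0.00312), a call in monolayers that was lost without knockout monolayer library 2 (adjusted p = 0.125). Its interaction was 0.30 (95% interval -0.14 to 0.75, adjusted p = 0.487), so no difference between the cultures was detected, and without 1 library it lay between 0.10 (knockout gel library 2) and 0.51 (knockout gel library 1). Between knockout gels and knockout monolayers its log2 difference was 0.34 (adjusted p = 0.0599), and it turned on single libraries. It passed in 6 of 15 alternatives, with 0.53 without knockout monolayer library 2 (adjusted p = 0.0227), 0.52 without knockout gel library 1 (0.00711) and 0.35 without control monolayer library 1 (0.0434). It was 0.14 without knockout gel library 2 (adjusted p = 0.582) and 0.19 without knockout monolayer library 1 (0.439). MMP16 lies on chromosome 8 (88032009 to 88328025, minus strand) and has the longest exon union of the 7 tested members, 11558 bases.

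MMP15 had 6.47 and 8.13 CPM in the knockout gels, against 5.57 and 5.93 CPM in the control gels. It had 7.97 and 7.04 CPM in the knockout monolayers, against 4.07 and 5.03 CPM in the control monolayers, which were the lowest group. MMP15 rose in knockout monolayers (log2 0.74 ± 0.17, or 1.67-fold, adjusted p = 0.00128), a call lost without control monolayer library 1 (adjusted p = 0.078). In knockout gels its log2 difference was 0.35 ± 0.16 (adjusted p = 0.113), which passed after correction for length and GC content (log2 0.50, adjusted p = 0.016) and without knockout gel library 1 (log2 0.52, adjusted p = 0.0356). Without knockout gel library 2 it was 0.17 (adjusted p = 0.654). It did not pass between gels and monolayers in knockout cells (log2 -0.04) or control cells (log2 0.36, adjusted p = 0.118), nor in the interaction (log2 -0.40, 95% interval -0.87 to 0.07). Without control monolayer library 1 the difference in control cells was 0.17 and the interaction -0.20, and without knockout gel library 1 the interaction was -0.21. MMP15 lies on chromosome 16 (58025566 to 58046901, plus strand).

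MMP1, the secreted interstitial collagenase, was lowest in the control monolayers. It had 12.2 and 13.7 CPM in the knockout gels, against 9.94 and 10.8 CPM in the control gels. It had 9.12 and 11.5 CPM in the knockout monolayers, against 5.997 and 5.34 CPM in the control monolayers. The control monolayers lay below all 6 other libraries, and the highest values were in the knockout gels. MMP1 rose in knockout monolayers (log2 0.86 ± 0.14, or 1.81-fold, adjusted p = 3.03e-05) and was higher by the same factor in control gels than in control monolayers (log2 0.86 ± 0.14, adjusted p = 2.09e-05). Both differences are taken against the same 2 libraries. In knockout gels its log2 difference was 0.32 ± 0.13 (adjusted p = 0.0611), which passed in 5 alternatives, including those without control monolayer library 1 (0.0447), knockout monolayer library 1 (0.0425) or knockout gel library 1 (0.0358). Without knockout gel library 2 it was 0.23 (adjusted p = 0.371). Knockout gels were above knockout monolayers by 0.32 ± 0.13 (adjusted p = 0.0462), a call lost in 7 of 15 alternatives, with log2 0.18 and adjusted p = 0.406 without knockout monolayer library 1, and adjusted p = 0.0542, 0.0548 and 0.292 without control gel library 1, control gel library 2 and knockout gel library 2. Without knockout monolayer library 2 it was 0.50. The interaction of -0.54 (95% interval -0.92 to -0.15) had an adjusted p of 0.0902 and did not pass, and without 1 library it lay between -0.66 and -0.36, again not passing.

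**Figure D2:**
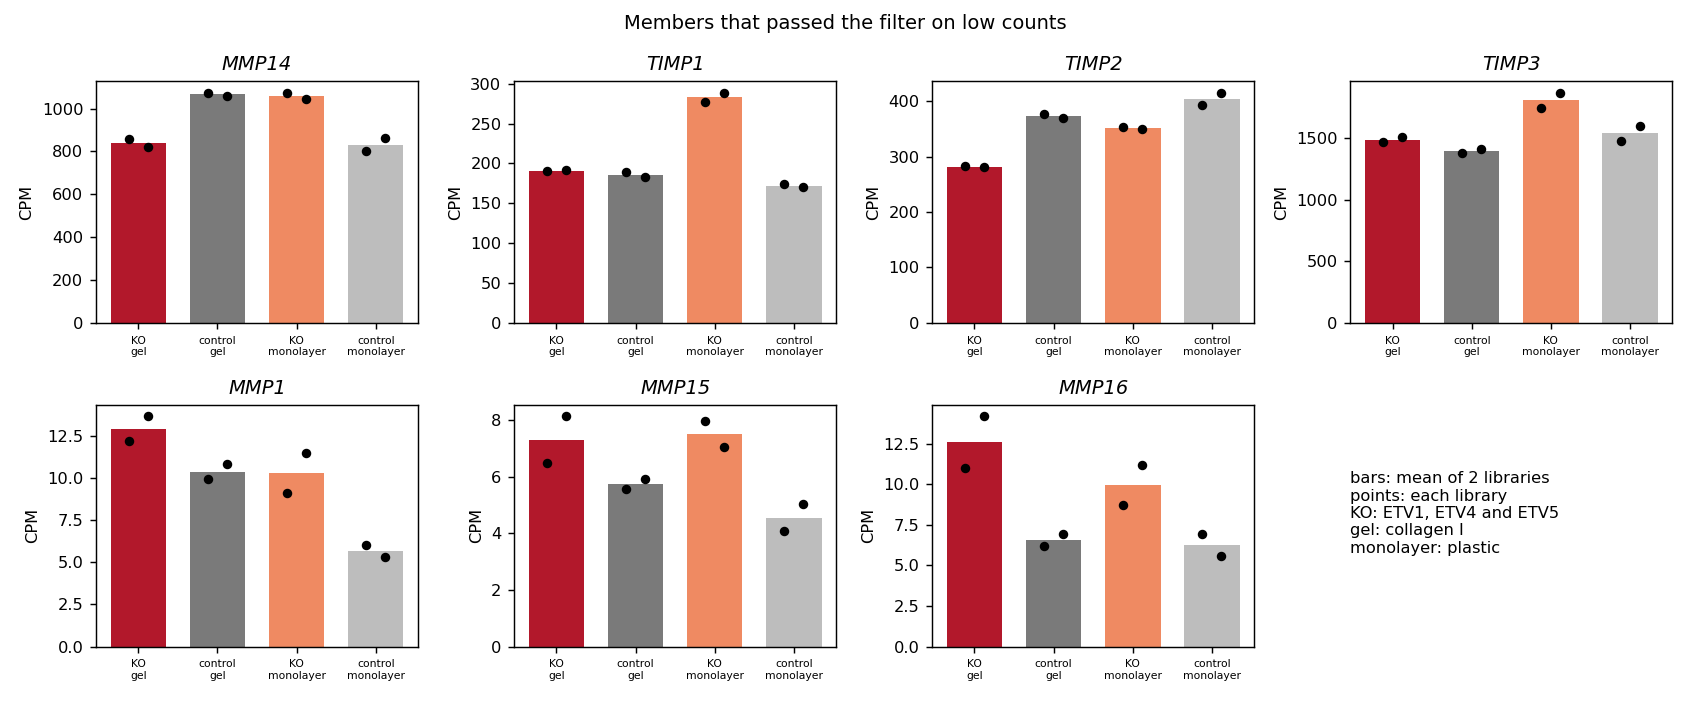
CPM of the 7 members that passed the filter on low counts (vertical axes, linear from 0), by group on the horizontal axis. Bars are means of 2 libraries and points are the libraries. MMP14 is high in control gels and knockout monolayers (1044 to 1075 CPM) and low in knockout gels and control monolayers (801 to 861 CPM), while TIMP1 stands out in the knockout monolayers (277 and 289 CPM).

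Among the inhibitors, TIMP1 moved most and in monolayers. Its level was 190.0 and 192 CPM in the knockout gels, against 189 and 182 CPM in the control gels. It was 277 and 289 CPM in the knockout monolayers, against 174 and 170.3 CPM in the control monolayers. The knockout monolayers stood above all 6 other libraries, which lay between 170.3 and 192 CPM. TIMP1 rose in knockout monolayers (log2 0.72 ± 0.047, or 1.64-fold, adjusted p = 6.57e-14). In gels the knockout difference was 0.04 (95% interval -0.06 to 0.14, adjusted p = 0.602), and the interaction was -0.68 ± 0.067 (adjusted p = 8.41e-09). TIMP1 was lower in knockout gels than in knockout monolayers (log2 -0.57 ± 0.047, adjusted p = 1.14e-11), and its difference between control gels and control monolayers, 0.11, did not pass (adjusted p = 0.0913). It passed after correction for length and GC content (log2 0.13, adjusted p = 0.0318) and was 0.02 with scaling by library size alone (adjusted p = 0.752).

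TIMP1 has a short transcript, with an exon union of 1459 bases, longer than that of 7.59% of 12566 tested protein-coding genes. Its GC content is above that of 79.3% of them. Across these genes, Spearman's rank correlation of the log2 difference with length and with GC content was -0.26 and 0.16 in knockout monolayers. For the interaction it was 0.15 and -0.29. With offsets that removed a trend over length and GC content from each library, TIMP1 rose by 0.66 in knockout monolayers and its interaction was -0.55, both still called.

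TIMP2 was lower in the knockout cells of both cultures. Its level was 283 and 281 CPM in the knockout gels, against 377 and 370.0 CPM in the control gels. It was 354 and 349.7 CPM in the knockout monolayers, against 394 and 416 CPM in the control monolayers. The groups did not overlap, and the knockout gels were lowest. TIMP2 fell in knockout gels (log2 -0.41 ± 0.045, a change of -24.6%, adjusted p = 1.11e-08) and in knockout monolayers (log2 -0.20 ± 0.045, or -13.1%, adjusted p = 0.00115). It was lower in knockout gels than in knockout monolayers (log2 -0.32 ± 0.045, adjusted p = 9.07e-07). Between control gels and control monolayers its difference of -0.11 had an adjusted p of 0.0545, just outside the threshold, and it passed in 8 of 15 alternatives, among them the fit with a replicate block (0.0486) and those without control monolayer library 1 (0.0192), knockout monolayer library 1 (0.0334) or knockout gel library 1 (0.0256). Without control monolayer library 2 it was -0.07 (adjusted p = 0.324), and without control gel library 2 it was -0.10 (0.307). The interaction of -0.21 ± 0.064 passed narrowly (adjusted p = 0.0438) and was lost in 11 of 14 alternatives. With length and GC offsets it was -0.10 (adjusted p = 0.435). It was also lost without any 1 of 7 libraries, the exception being control monolayer library 2, at adjusted p = 0.082 to 0.263.

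TIMP3, the most abundant member, was highest in the knockout monolayers. Its level was 1466 and 1513 CPM in the knockout gels, against 1383 and 1415 CPM in the control gels. It was 1751 and 1872 CPM in the knockout monolayers, against 1481 and 1601 CPM in the control monolayers. TIMP3 rose in knockout monolayers (log2 0.23 ± 0.047, or 17.6%, adjusted p = 0.000391), and in knockout gels its difference of 0.09 did not pass (adjusted p = 0.165). That difference was 0.15 with length and GC offsets (adjusted p = 0.0287) and 0.06 without knockout gel library 2 (0.575). It was lower in gels than in monolayers in knockout cells (log2 -0.28 ± 0.047, adjusted p = 1.29e-05) and in control cells (log2 -0.14 ± 0.047, adjusted p = 0.0256). The call in control cells was lost without control monolayer library 2 (log2 -0.08, adjusted p = 0.261), control gel library 1 (0.231) or control gel library 2 (0.104) and with length and GC offsets (0.0904), and the difference was -0.21 without control monolayer library 1 and -0.22 with scaling by library size alone. The interaction of -0.14 did not pass (adjusted p = 0.23), but did without control monolayer library 2 (log2 -0.21, adjusted p = 0.0356). It was -0.06 without control monolayer library 1 (adjusted p = 0.713) and -0.08 without knockout gel library 1 (0.558).

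TIMP1 on chromosome X (47582313 to 47586789, plus strand) lies within SYN1 and TIMP3 on chromosome 22 (32801701 to 32863043, plus strand) within SYN3, both genes of the opposite strand. No annotated exons were shared, and SYN1 and SYN3 had at most 8 and 6 counts in a library. TIMP2 on chromosome 17 (78852977 to 78925387, minus strand) shares 9.0% of its exon bases with an antisense transcript, MMP1 shares 7.6% with the pseudogene WTAPP1 and MMP16 shares 1.0% with an antisense transcript. Whether counting used strand is not stated, so reads in those shared bases are uncertain.

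The members called in each comparison can be read against the share of all genes called. In knockout monolayers all 7 tested members were called, 6 higher and TIMP2 lower, where 19.2% of all tested genes were called (9.60% higher and 9.60% lower). In knockout gels 3 of 7 were called, MMP16 higher and MMP14 and TIMP2 lower, where 23.9% of all genes were called (11.5% higher and 12.4% lower). With length and GC offsets 6 were called, but calls over all 15568 genes also went up with them, to 4674 against 3721 without, and the higher calls to 3053 against 1786. Without knockout gel library 1, 5 members were called, where 3528 of 16177 genes were called. MMP16 and TIMP2 were called in the same direction in both cultures, and MMP14 in opposite directions. Between gels and monolayers, 5 of 7 members were called in knockout cells, MMP1 higher and MMP14, TIMP1, TIMP2 and TIMP3 lower (38.0% of all genes, 20.1% higher and 17.9% lower), and 3 of 7 in control cells, MMP1 and MMP14 higher and TIMP3 lower (26.7%, with 16.0% higher and 10.7% lower). Of the 3 members called in the interaction, MMP14, TIMP1 and TIMP2, all had negative values, where 6.60% of all genes were called (2.67% higher and 3.94% lower). Across 12566 protein-coding genes the interaction was lower at higher GC content (Spearman's rank correlation -0.29). The GC content of MMP14, TIMP1 and TIMP2 was above that of 82.2%, 79.3% and 67.0% of these genes. The part of this trend in the shared sign was not tested. Among 7 tested members the median log2 difference was 0.65 in knockout monolayers and 0.09 in knockout gels, where the medians over all tested genes were 0.01 and 0.00.

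**Figure D3:**
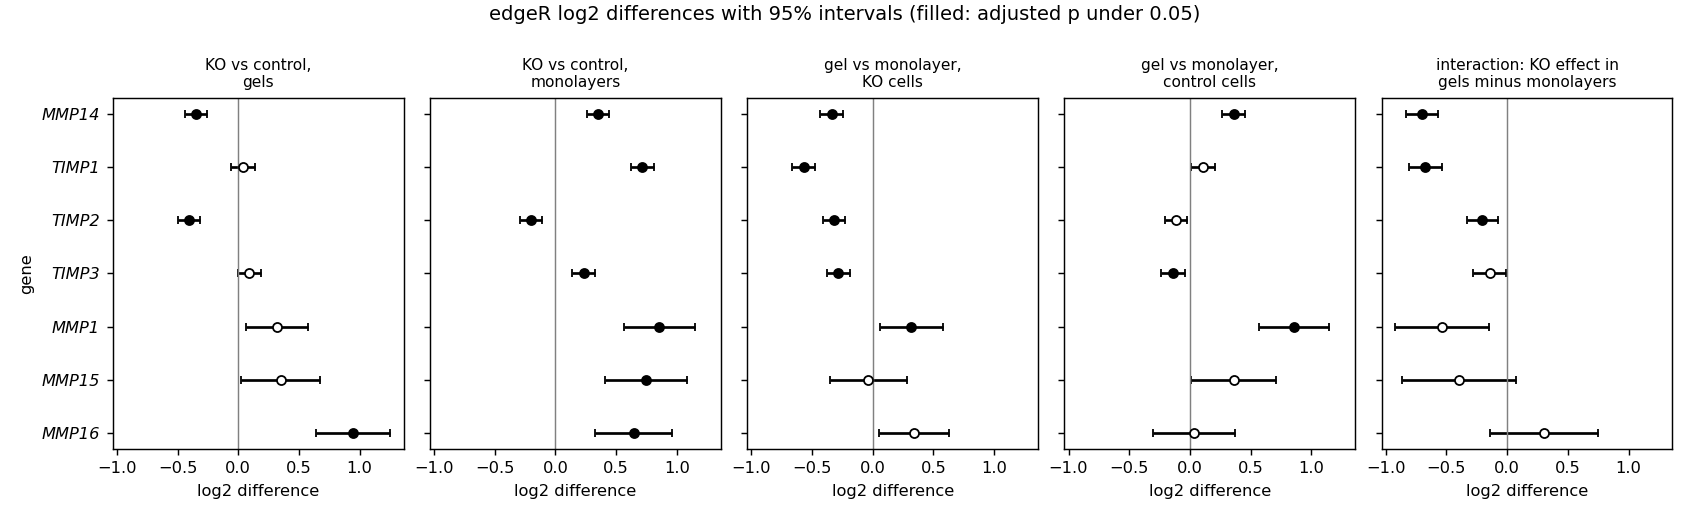
Log2 differences from edgeR (horizontal axes) with 95% intervals for the 7 tested members in the 5 comparisons, with filled points for an adjusted p under 0.05. MMP14 lies at -0.35 in gels and 0.35 in monolayers, TIMP1 at 0.04 and 0.72, TIMP2 is negative in both and MMP16 positive in both.

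Ratios within a library do not depend on how libraries were scaled, and they set the protease beside its inhibitors. Per kb of exon, MMP14 over TIMP2 was 3.30 and 3.19 in the knockout gels, against 3.10 and 3.13 in the control gels. It was 3.32 and 3.26 in the knockout monolayers, against 2.22 and 2.26 in the control monolayers. The ratio was thus 3.10 to 3.32 in 3 groups and lower in the control monolayers. That group had neither knockout nor gel, and its label does not name Cas9, so these cannot be told apart here. MMP14 over TIMP1 was 1.76 and 1.67 in the knockout gels, against 2.22 and 2.27 in the control gels, and 1.52 and 1.41 in the knockout monolayers, against 1.80 and 1.98 in the control monolayers. This ratio was lower in each knockout group than in its control. MMP14 over TIMP3 was 0.720 and 0.668 in the knockout gels, against 0.957 and 0.925 in the control gels, and 0.757 and 0.688 in the knockout monolayers, against 0.667 and 0.663 in the control monolayers. TIMP1 over TIMP2 was 1.88 and 1.91 in the knockout gels, against 1.399 and 1.38 in the control gels, and 2.19 and 2.31 in the knockout monolayers, against 1.24 and 1.14 in the control monolayers. TIMP1 over TIMP2 was higher in each knockout library than in every control library. The ratios are given as values with no test.

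**Figure D4:**
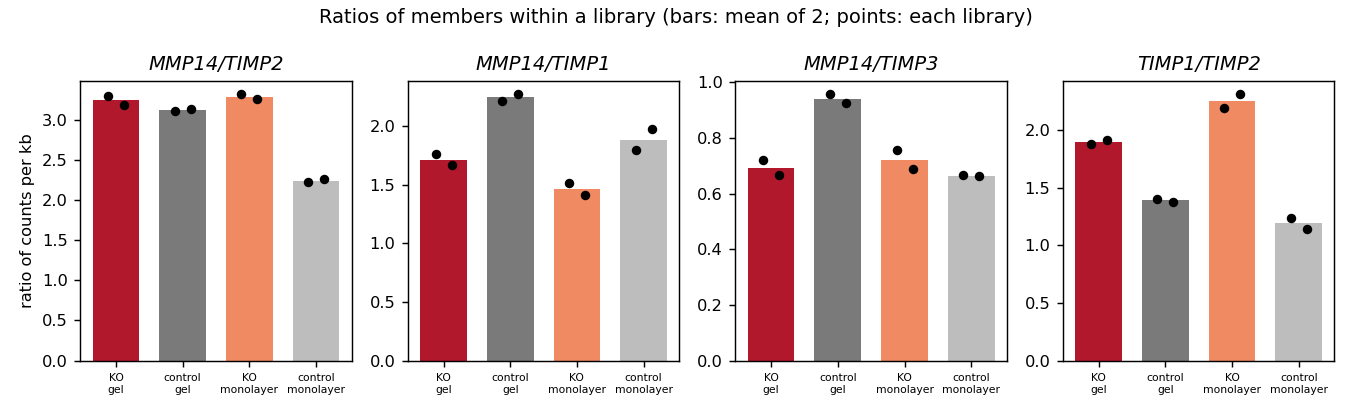
Ratios of counts per kb of exon between members of 1 library (vertical axes, linear from 0), by group, with bars for means of 2 libraries and points for libraries. MMP14 over TIMP2 is 2.22 and 2.26 in the control monolayers and 3.10 to 3.32 elsewhere, and TIMP1 over TIMP2 is higher in the knockout groups.

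Other genes of the system were taken from a list of 17 further MMPs and TIMP4, of which 5 were tested, and a list of 14 genes for activation, surface control, uptake and invadopodia, of which 12 were tested. In the first list MMP11, a secreted stromelysin, fell to 2.11 ± 0.12 CPM in knockout gels, against 4.12 ± 0.55 CPM in control gels (SD, n = 2; log2 -0.97 ± 0.22, adjusted p = 0.000922), as the 1 call of the list there. In knockout monolayers the 1 call was TIMP4, another inhibitor, at 5.91 ± 0.75 CPM, against 8.80 ± 0.87 CPM in control monolayers (log2 -0.58, adjusted p = 0.00445), which was named after its values were seen. Over all genes 23.9% were called in knockout gels and 19.2% in knockout monolayers, so 1 call of 5 is near the overall share in both. Between gels and monolayers 3 of 5 were lower in knockout cells, where 17.9% of all genes were lower and 20.1% higher. In control cells 1 of 5 was lower, where 10.7% of all genes were lower and 16.0% higher. None of the 5 was higher in either. In the second list 2 of 12 rose and 1 fell in knockout gels, a share near the 23.9% of all genes. In knockout monolayers 4 of 12 rose and 1 fell, where 19.2% of all genes were called. For gels against monolayers 3 were higher and 4 lower in knockout cells, where 38.0% of all genes were called, and 4 were higher and 3 lower in control cells, where 26.7% were called.

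FURIN, the convertase that cuts the propeptide of membrane MMPs inside the cell, had 56.6 ± 1.14 CPM in knockout gels, against 52.6 ± 2.18 CPM in control gels, and 94.96 ± 2.64 CPM in knockout monolayers, against 65.6 ± 6.27 CPM in control monolayers (SD, n = 2). It rose in knockout monolayers (log2 0.54 ± 0.064, adjusted p = 5.16e-08), was lower in knockout gels than in knockout monolayers (log2 -0.75 ± 0.065, adjusted p = 3.66e-11) and was the 1 gene of the second list called in the interaction (log2 -0.44 ± 0.093, adjusted p = 0.00217). CD44, a hyaluronan receptor that can hold MMP14 at the cell surface, rose in knockout gels (log2 0.37, adjusted p = 2.42e-07) and in knockout monolayers (log2 0.23, adjusted p = 0.000719). CAV1, the main caveolar coat protein, rose in knockout gels (log2 0.17, adjusted p = 0.00500) and in knockout monolayers (log2 0.26, adjusted p = 4.36e-05). LRP1, an uptake receptor for proteases and their inhibitors, fell to 28.1 ± 2.98 CPM in knockout gels, against 39.4 ± 0.82 CPM in control gels (log2 -0.48 ± 0.091, adjusted p = 0.000329). Between control gels and control monolayers the smallest p-values of the list belonged to CD63, a TIMP1-binding tetraspanin, CD44, and BSG, an inducer of MMPs, which were higher in gels by 0.28, 0.28 and 0.25 on the log2 scale (adjusted p = 1.73e-05, 3.87e-05 and 5.74e-05). The 3 genes of the list that were lower there, named after their values were seen, were LRP1 (log2 -0.50, adjusted p = 0.000104), RECK, a membrane-anchored MMP inhibitor (log2 -0.47, adjusted p = 0.00174), and FURIN (log2 -0.31, adjusted p = 0.000572). RECK also fell in knockout monolayers (log2 -0.37, adjusted p = 0.0189) and was lower in knockout gels than in knockout monolayers (log2 -0.35, adjusted p = 0.0251). Its difference in knockout gels against control gels did not pass (log2 -0.24, adjusted p = 0.155). Between knockout gels and knockout monolayers CD44 was higher by 0.43 (adjusted p = 1.37e-08) and LRP1 differed by -0.89 (adjusted p = 4.13e-08).

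Likeness of pattern was measured as Pearson's r of log2 CPM over the 8 libraries, among 10763 other genes with a mean of at least 5 CPM. The genes most like MMP14 were FAM43A, CERK and PHF12 (r of 0.95, 0.93 and 0.93), and those most like TIMP1 were PDK2, CAMK2N1 and RAB31 (0.98, 0.98 and 0.98). For TIMP2 they were SEMA4B, SLC44A2 and YEATS2 (0.99 each), for TIMP3 PTGES, SCG2 and CLDND1 (0.98 each), and for MMP1 SYS1, AAR2 and TFAP2C (0.99, 0.98 and 0.98). For MMP15 they were EMILIN2, COMMD9 and KIFBP (0.97, 0.96 and 0.96), and for MMP16 FRAT2, RELCH and SLC30A5 (0.98, 0.98 and 0.97). Among the members, the highest correlation was between TIMP1 and TIMP3 (0.84) and the lowest between MMP16 and TIMP2 (-0.90), with MMP1 and TIMP2 at -0.81. These values describe 8 libraries in 4 groups that share their scaling, and 10763 genes leave many with a like pattern.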

How the data were processed

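Stranded poly(A) libraries of 8 samples were sequenced. The authors deposited a table of raw counts per gene symbol, with 1 column for each library. The tools they used were FastQC 0.11.9, STAR 2.7.9a, featureCounts and R 4.1.1 on build hg38, per the submitters' processing notes, which give no annotation or strand setting here. Genes were filtered with filterByExpr (minimum count 10), scaled by TMM and tested in edgeR 4.0.16 (R 4.3.3) with the robust quasi-likelihood F-test, fitting 1 mean per group to the 8 libraries (4 residual degrees of freedom). P-values are two-sided, adjusted by Benjamini-Hochberg over 15568 genes with a threshold of 0.05. For most members the test had 34.3 degrees of freedom, which borrow mainly from the other genes' variability. CPM uses the TMM factors, and lengths and positions come from GENCODE 29 on GRCh38. Replicate libraries differed by more than counting error (chi-squared divided by its degrees of freedom was 2.39 to 5.76). Alternatives were DESeq2 1.42.0, other scalings, no filter, offsets for length and GC content (97.5% of tested genes had both), the 2 groups alone, a replicate block and leaving out each library. The fits were tested on simulated data. There DESeq2 recovered fewer of the smaller changes than edgeR and missed the recovery limit first set for both, which was then, with that result known, required of edgeR alone. Named genes were the members, the targets, up to 3 called genes of the pathway lists per comparison, and the 3 genes most alike per member. The members and lists were chosen with earlier results of these data known.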

Additional observations from a re-analysis of the deposited data

Results flagged for a closer look

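The knockout effect of 3 members differed between gels and monolayers in a test of the difference itself. For MMP14 the effect in gels minus that in monolayers was -0.70 ± 0.065 on the log2 scale (adjusted p = 1.97e-09), with effects of -0.35 in gels and 0.35 in monolayers. For TIMP1 it was -0.68 ± 0.067 (adjusted p = 8.41e-09), with effects of 0.04 in gels and 0.72 in monolayers. For TIMP2 it was -0.21 ± 0.064 (adjusted p = 0.0438), with effects of -0.41 in gels and -0.20 in monolayers. The TIMP2 call was lost in 11 of 14 alternatives, with -0.10 and an adjusted p of 0.435 with length and GC offsets, whereas the calls on MMP14 and TIMP1 held in all 14. The control monolayers, whose label does not name Cas9, enter each of these differences, and the part of Cas9 cannot be told apart from that of the culture.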

How the results depend on the processing

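Of 35 results on members, 23 kept their side of the threshold in each alternative that gave a value, and of 515 values 467 did so. Another 24 values lost a call, 24 gained one and 0 reversed a called direction. Where no fit gave a call, the direction could change. Between gels and monolayers, MMP15 in knockout cells (log2 -0.04) ranged from -0.22 to 0.16, and MMP16 in control cells (0.03) from -0.09 to 0.21. The calls on MMP14 in all 5 comparisons and on TIMP1 in the 3 where it was called held throughout, at 0.29 to 0.41 and 0.66 to 0.73 in knockout monolayers and -0.76 to -0.54 and -0.70 to -0.55 in the interaction. The members called in knockout gels were 6 with length and GC offsets. Without 1 library, the members called were 3 to 5 in knockout gels, 6 to 7 in knockout monolayers, 4 to 6 and 2 to 4 for gels against monolayers in knockout and control cells, and 2 to 4 in the interaction. By DESeq2, 2358 genes were called in knockout gels, 1746 in knockout monolayers, 2427 for control gels against control monolayers and 651 in the interaction, against 3721, 2989, 4158 and 1028 by edgeR. For knockout gels against knockout monolayers DESeq2 called 4039 and edgeR 5915. Without 1 library the counts were 2106 to 3914, 1848 to 3224, 2144 to 4501 and 413 to 1334, and 4191 to 6028 in knockout gels against knockout monolayers. For control gels against control monolayers, 2486 genes were higher and 1672 lower, but 1239 and 2804 with library size alone. In knockout gels 1786 were higher and 1935 lower, but 3053 and 1621 with length and GC offsets. For knockout gels against knockout monolayers the split was 3122 and 2793, but 2089 and 3539 with library size alone and 4582 and 2228 with those offsets, and in the interaction 415 and 613, but 673 and 423 with the offsets. The labels do not say that replicate numbers pair libraries, so the main fit had no replicate block. Across all tested genes, the gap between replicates correlated from -0.063 to 0.082 between groups. Counting error lowers such a correlation, so it cannot exclude that the numbers pair libraries. With the number as a replicate block, 3937, 3187, 6108, 4435 and 1203 genes were called in knockout gels, knockout monolayers, gels against monolayers in knockout and in control cells, and the interaction, and 2 results on members changed side: TIMP2 in control cells and MMP16 in knockout cells (log2 0.34, adjusted p = 0.0395), both between gels and monolayers and both newly called. DESeq2 gave no adjusted p for MMP1, MMP15 and MMP16 in the interaction. The scalings moved the median of all genes by less than 0.1 (log2).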
